A study of Mus musculus with 12 samples.

Results

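Quadriceps muscle of dystrophic mice given eplerenone plus lisinopril was compared with that of untreated dystrophic mice by microarray. The members were the 3 arrays titled with this combination and the 3 titled untreated, 6 of the 12 arrays in the series. All mice were male, 6 weeks old, on the C57BL/10 background and of the genotype utrn+/-;mdx, that is, dystrophin-deficient with 1 mutant copy of the utrophin gene. Treated mice received eplerenone at 200 and lisinopril at 20 mg/kg per day in medicated pellets from 4 to 6 weeks of age, whereas untreated mice ate normal chow. The 3 biological replicates of each of 2 further groups served for direct comparisons: spironolactone at 100 with lisinopril at 20 mg/kg per day in pellets, and prednisolone at 1.5 mg/kg per day in drinking water, over the same ages. The set used here held neither healthy mice, nor lisinopril or eplerenone alone, nor pellets without drug. Effects of eplerenone, of lisinopril and of the pellet diet therefore cannot be told apart.

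Duchenne muscular dystrophy results from loss of dystrophin, the protein that links the actin skeleton of the muscle fibre to the membrane and the surrounding matrix. Fibres tear, die and regenerate, and neutrophils and macrophages enter the damaged tissue. Utrophin, a relative of dystrophin, takes over part of its role in mdx mice. Eplerenone is a steroidal antagonist of the mineralocorticoid receptor, a ligand-activated transcription factor that binds aldosterone and, in cells without the enzyme that inactivates it, corticosterone. Lisinopril inhibits angiotensin-converting enzyme, which makes angiotensin II, the peptide that drives aldosterone release. Both steps feed the same hormone axis, and both kinds of drug are used in the cardiomyopathy of dystrophic patients.

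The table held 65587 transcript clusters with log2 signals, of which 30412 had exactly 1 gene symbol and were tested. The 24 measured skeletal muscle markers had mean log2 signals of 10.35 to 19.92, with the lowest, for Mb, above 88.9% of tested clusters. Array medians ran from 5.70 to 5.81. Differences are given as log2 differences ± SE (treated minus untreated unless stated, n = 3 arrays per group). They were tested by the moderated test of limma with Benjamini-Hochberg adjustment over the 30412 clusters at an adjusted p of 0.05. In bulk tissue, fewer cells of a type and less RNA per cell cannot be told apart.

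Against untreated muscle, 2 clusters were higher and 7 lower past the threshold, 0.00658% and 0.0230% of those tested (0.0296% in all). The 6 named genes that fell encode the monocyte lipopolysaccharide co-receptor Cd14, the T-cell costimulatory ligand Cd80, the NF-kappa B subunit Rel, the antioxidant transcription factor Nfe2l2 (Nrf2), the transcription elongation factor Ell2 and the Rab exchange factor Dennd4a. The seventh was a predicted small nuclear RNA gene. The 2 genes that rose were Sgta, a cochaperone of tail-anchored membrane proteins, and Shisa4, a membrane protein. A further 23 clusters lay between an adjusted p of 0.05 and 0.1, so that 32 were under 0.1 (10 higher and 22 lower), and 4087 had an unadjusted p under 0.05 (1859 higher and 2228 lower). The median difference over all tested clusters was -0.03, with 13374 clusters above and 17038 below 0.

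Cd14 had log2 signals of 6.87, 6.49 and 7.08 in treated replicates 1, 2 and 3 and of 8.31, 9.15 and 8.36 in untreated replicates 1, 2 and 3. The groups were well apart, and Cd14 fell by 1.79 ± 0.21 (adjusted p = 0.0235). Cd80 was at 7.09, 7.15 and 7.22 in treated and at 8.04, 8.72 and 8.87 in untreated muscle, again without overlap. It fell by 1.39 ± 0.17 (adjusted p = 0.0254). Cd80 and Cd14 were the 2 of 37 measured macrophage and monocyte markers that passed, both lower, against 0.0230% of all clusters.

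Rel, which pairs with other NF-kappa B subunits to drive genes of lymphocyte and macrophage activation, was at 10.06, 10.03 and 10.15 in treated and 10.70, 10.84 and 10.78 in untreated arrays. Its replicates were tight in both groups, and it fell by 0.69 ± 0.07 (adjusted p = 0.0143). Nfe2l2 was at 9.74, 9.70 and 9.63 against 10.30, 10.61 and 10.40, a fall of 0.75 ± 0.09 (adjusted p = 0.0254). Ell2, a subunit of the super elongation complex that releases paused RNA polymerase II, was at 9.35, 9.62 and 9.57 against 10.52, 10.45 and 10.94. It fell by 1.12 ± 0.14 (adjusted p = 0.0254). Dennd4a fell by 1.01 ± 0.10 (adjusted p = 0.0143), from 9.43, 9.70 and 9.45 to 8.62, 8.51 and 8.41. For each of these 4 genes every treated array lay under every untreated array.

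Sgta was at 10.69, 10.66 and 10.71 in treated and 10.15, 10.21 and 10.10 in untreated muscle. It rose by 0.53 ± 0.07 (adjusted p = 0.0254). Shisa4 rose by 0.84 ± 0.11, from 10.72, 10.67 and 10.69 to 11.64, 11.42 and 11.55, and its adjusted p of 0.04997 put it just inside the threshold. Just outside, at an adjusted p of 0.0501 each, were Mt1 (metallothionein) at -1.20, Il6 (interleukin 6) at -1.93 and Plaur (the urokinase receptor) at -1.40. The next largest rises by p were Chrnb1, the beta subunit of the muscle acetylcholine receptor, at 1.04 ± 0.15 (adjusted p = 0.0610), Tbc1d7, a subunit of the TSC complex that restrains mTORC1, at 0.70 ± 0.10 (adjusted p = 0.0706), and Reep1, which shapes endoplasmic reticulum, at 0.76 ± 0.12 (adjusted p = 0.0783).

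**Figure D1:**
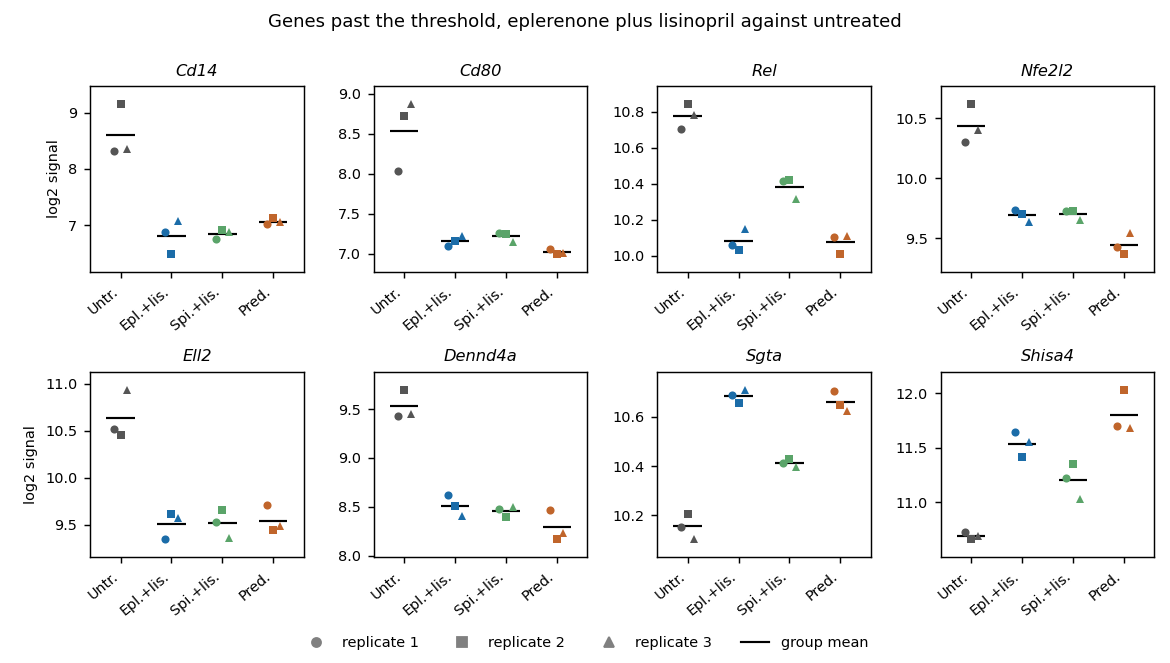
Log2 signal (vertical axes, each panel on its own range) of the 8 named genes past the threshold against untreated, by array in the 4 groups of 3; points are arrays, shapes are replicate numbers and bars are group means. In all 8 panels the eplerenone plus lisinopril arrays lie apart from the untreated arrays, below them for Cd14 to Dennd4a and above them for Sgta and Shisa4.

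Which calls were made depended on single arrays. Without treated replicate 1 or 2, or without untreated replicate 3, 0 clusters passed, and 2577 to 4483 had an unadjusted p under 0.05. Without treated replicate 3, 1 passed. Without untreated replicate 2, 13 passed, and without untreated replicate 1, 432 did, 1.42% of those tested (169 or 0.556% higher and 263 or 0.865% lower, among them all 9 above). In the other 5 fits with 1 array left out, 0 members passed in 38 of the 41 lists and at most 1 in the macrophage, NF-kappa B and oxidative stress lists. A fit of the 6 arrays alone passed 0 clusters, with 3345 at an unadjusted p under 0.05. The 8 named genes kept their direction in every alternative in which they were tested. Measured from untreated replicate 1 alone, Cd14 was at -1.50, Cd80 at -0.88, Rel at -0.62, Nfe2l2 at -0.61, Ell2 at -1.01, Dennd4a at -0.92, Sgta at 0.53 and Shisa4 at 0.81.

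The promoters of 7 of the 8 named genes were matched by symbol in RefSeq windows of 250 bases before to 50 bases after a start (GRCm38.p6). These were searched on both strands for response elements of the hormone receptors, NF-kappa B, AP-1, CREB, STAT and clock factors. Rel held GGGATTTCC, a kappa B form, as its reverse complement 91 bases upstream of the start, a form found in 0.323% of 32851 windows (0.566% for it and 2 longer kappa B forms together). Ell2 held the cAMP response element TGACGTCA 198 bases upstream, found in 1.79% of windows. The 250 bases upstream of the start are shown for both, since both genes fell and hold such a match, with the matches in capitals; the Rel region is chr11:23770970-23771219 on the minus strand and the Ell2 region chr13:75707234-75707483 on the plus strand.
Rel: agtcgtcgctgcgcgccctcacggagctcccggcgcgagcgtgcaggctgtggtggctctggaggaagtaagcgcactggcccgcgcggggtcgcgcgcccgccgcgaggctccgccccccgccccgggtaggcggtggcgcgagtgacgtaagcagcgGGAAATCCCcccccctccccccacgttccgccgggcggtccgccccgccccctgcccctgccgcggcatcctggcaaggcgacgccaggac
Ell2: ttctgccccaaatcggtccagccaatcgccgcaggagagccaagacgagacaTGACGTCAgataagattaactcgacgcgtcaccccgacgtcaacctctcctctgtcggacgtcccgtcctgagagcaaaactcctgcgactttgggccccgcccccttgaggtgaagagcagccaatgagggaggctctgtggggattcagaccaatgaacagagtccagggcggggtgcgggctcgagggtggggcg
Sgta also held TGACGTCA, together with the E-box CACGTG that clock and Myc family factors bind (7.15% of windows). Dennd4a held a match to the STAT motif TTCNNNGAA (8.3% of windows). The windows of Cd80, Nfe2l2 and Shisa4 held none of the motifs searched, which included TGACTCA (5.2%), TTATGTAA (0.938%) and the palindromic glucocorticoid response element, found in 0.00913% of windows. These matches describe the sequence only.

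At a fold of 2, the size the submitters selected on, 52 clusters were higher and 147 lower, without a test. Predicted or small RNA genes made up 33 of the higher and 11 of the lower clusters. Of all 199 clusters, 183 had an unadjusted p under 0.05 and 4 were past the threshold. Groups did not overlap for 47 of the higher and 94 of the lower, against 7.70% and 9.23% of all tested clusters. The 199 were picked by their difference in these same arrays, so these counts give no separate support for it. From untreated replicate 1 alone 175 clusters were past a fold of 2, from replicate 2 alone 491 and from replicate 3 alone 559. Of the 199, 70, 160 and 156 were past it from replicates 1, 2 and 3.

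S100a8, which encodes a calcium-binding protein of neutrophil granules, was at 5.12, 5.16 and 6.37 in treated muscle and at 7.14, 12.93 and 12.03 in untreated replicates 1, 2 and 3. The difference was -5.15 ± 1.19 (adjusted p = 0.168), and untreated replicate 1 lay nearer to the treated arrays than to the other two untreated ones. Its partner S100a9 had the same order, with 6.06, 5.45 and 5.91 against 6.80, 12.45 and 11.35 (-4.39 ± 1.07, adjusted p = 0.18). Il1b, a cytokine that neutrophils and macrophages release, was at 6.28, 6.30 and 6.49 against 8.09, 12.87 and 11.72 (-4.54 ± 0.95, adjusted p = 0.148). Trem1, an amplifying receptor of the same cells, was at 5.13, 4.93 and 4.75 against 5.11, 8.43 and 7.57, so that its groups overlapped through untreated replicate 1. Hdc, the enzyme that makes histamine, was at -2.53 ± 0.46 (adjusted p = 0.104). Of the 21 measured neutrophil markers 0 passed with all arrays or with any one of the other 5 left out. Without untreated replicate 1, 8 passed, all lower, against 0.865% of all clusters, S100a8, S100a9, Hdc and Trem1 among them.

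The mean log2 signal of those 21 neutrophil markers was 5.93, 7.63 and 7.36 in untreated replicates 1, 2 and 3. It was 5.46 to 5.71 in the treated arrays, 5.58 to 6.05 with spironolactone plus lisinopril and 5.79 to 6.02 with prednisolone. Over the 37 macrophage and monocyte markers it was 11.00, 11.74 and 11.28 in the untreated arrays and 10.58 to 10.97 in the treated ones. The part of neutrophil content in the other inflammatory values was not tested. The median difference of the neutrophil markers was -1.32, between -1.90 and -0.86 with 1 array left out, and -0.13 from untreated replicate 1 alone. For macrophage and monocyte markers it was -0.42, and -0.19 from replicate 1, with 14 of 37 members lower without overlap against 9.23% of all clusters. Cd68, a lysosomal macrophage protein, had overlapping groups and a difference of -0.28 ± 0.36 (adjusted p = 0.766).

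Among 43 measured cytokines and chemokines 0 passed with all arrays, while 39 were below 0 and 12 were lower without overlap, against 9.23% of all clusters. The median was -0.56, between -0.91 and -0.31 with 1 array left out, and -0.07 from untreated replicate 1 alone. Without that array 12 passed, all lower, against 0.865% of all clusters, and 0 passed without any other array. Il6, an interleukin made by injured muscle as well as by immune cells, was at 4.96, 4.75 and 5.04 against 6.47, 6.50 and 7.55 (-1.93 ± 0.27, adjusted p = 0.0501). From untreated replicate 1 alone the difference was -1.56 for Il6 and -1.73 for Il1b. The macrophage chemokine Ccl9 was at -1.87 ± 0.41 (adjusted p = 0.15) and Cxcl14 at -1.03 ± 0.23 (adjusted p = 0.161), both without overlap. Ptgs2, the inducible cyclooxygenase, was at 6.32, 6.71 and 6.62 against 7.30, 10.14 and 9.01 (-2.26 ± 0.53, adjusted p = 0.168). Among 19 NF-kappa B pathway genes Rel passed as lower, against 0.0230% of all clusters. The list's median was -0.23, but -0.03 from untreated replicate 1 alone. Without overlap 2 members were higher and 6 lower, against 7.70% and 9.23% of all clusters. The inhibitor Nfkbia, itself an NF-kappa B target, was at -1.36 (adjusted p = 0.0988) and at -1.51 from untreated replicate 1.

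The immediate-early genes, transcribed within minutes of a stimulus, showed another order of the untreated arrays. All 29 measured members were below 0, 15 of them without overlap against 9.23% of all clusters, and 0 passed. Their median was -0.77, and -0.79, -0.40 and -1.08 from untreated replicates 1, 2 and 3 alone. Fosl2, an AP-1 subunit, was at 7.89, 8.26 and 8.24 in treated and 10.83, 9.19 and 10.04 in untreated arrays (-1.89 ± 0.46, adjusted p = 0.18). It was highest in untreated replicate 1, where the neutrophil markers were low. Zfp36, which binds and destabilises cytokine mRNAs, was at 7.73, 8.0 and 7.83 against 9.60, 9.27 and 10.25 (-1.85 ± 0.33, adjusted p = 0.104). Csrnp1 was at -0.72 ± 0.12 (adjusted p = 0.0949) and the ERK phosphatase Dusp5 at -1.29 ± 0.23 (adjusted p = 0.104). Without untreated replicate 1, 5 of the 29 passed, all lower, against 0.865% of all clusters. Thbs1, a matrix glycoprotein released by platelets and injured tissue, was at 12.34, 11.82 and 12.75 against 14.21, 15.07 and 15.94. Its difference was -2.77 ± 0.41 (adjusted p = 0.0706).

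**Figure D2:**
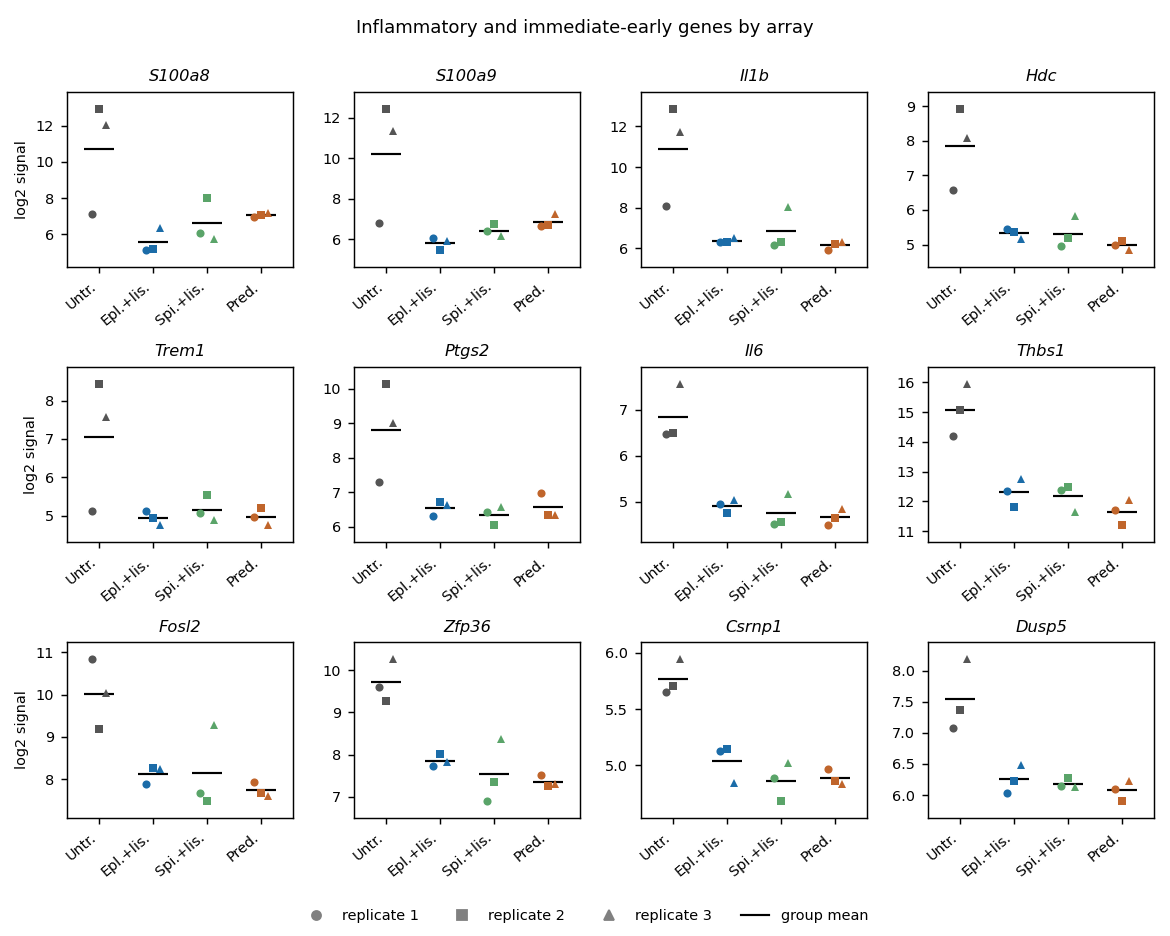
Log2 signal (vertical axes, each panel on its own range) of 12 inflammatory and immediate-early genes by array in the 4 groups of 3, none of them past the threshold against untreated; points are arrays, shapes are replicate numbers and bars are group means. S100a8, S100a9, Il1b, Hdc and Trem1 are low in untreated replicate 1 and high in replicates 2 and 3, whereas Fosl2 is highest in replicate 1.

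Stress, metal and polyamine genes were measured next. Of 22 oxidative stress genes Nfe2l2 passed as lower, against 0.0230% of all clusters. In this list 18 were below 0, and 8 were lower without overlap (9.23% of all clusters). The median was -0.27 (-0.15 from untreated replicate 1). The metallothioneins, which bind zinc and copper, were at 16.51, 16.59 and 16.59 against 17.38, 17.78 and 18.12 for Mt1 and at 17.93, 18.01 and 18.68 against 18.98, 19.46 and 19.62 for Mt2. Neither overlapped between groups, and the difference for Mt2 was -1.15 ± 0.25 (adjusted p = 0.15). Of 22 heat shock and unfolded protein response genes 0 passed. Hspa1a, the inducible Hsp70, was at 4.42, 4.93 and 5.23 against 4.58, 7.10 and 7.30 and thus high in untreated replicates 2 and 3 only, while Xbp1, a regulator of the unfolded protein response, was at -0.65 ± 0.17 (adjusted p = 0.213). Of 10 polyamine genes 0 passed, and Odc1, the rate-limiting enzyme of the pathway, was at -0.86 ± 0.25 (adjusted p = 0.237).

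The targets of the drugs and their pathway came next. None of the 13 measured corticosteroid receptors and enzymes passed or separated the groups, and their median was -0.02. Nr3c2, the mineralocorticoid receptor that eplerenone blocks, was at 7.49, 7.51 and 7.26 in treated and 7.65, 6.98 and 7.04 in untreated muscle (0.19 ± 0.16, adjusted p = 0.614). Its groups overlapped, as did those of the glucocorticoid receptor Nr3c1 (0.06 ± 0.15, adjusted p = 0.897). Hsd11b1, which regenerates active glucocorticoid, was at -0.02 ± 0.45, and Hsd11b2, which inactivates it, at 0.20 ± 0.12, both with overlapping groups.

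Of 21 measured renin-angiotensin and kinin genes 0 passed, with a median of 0.04. Ace, the target of lisinopril, was at 13.06, 13.58 and 13.19 against 13.38, 12.70 and 13.21 (0.18 ± 0.24, adjusted p = 0.778), with overlapping groups. The angiotensin precursor Agt was at 0.17 ± 0.17 and the main angiotensin II receptor Agtr1a at 0.04 ± 0.16. Agtr2, the receptor that opposes Agtr1a in many tissues, was at 6.71, 6.44 and 6.18 against 6.05, 5.83 and 5.52 (0.65 ± 0.16, adjusted p = 0.18), and the inducible kinin receptor Bdkrb1 was at -0.37 ± 0.10 (adjusted p = 0.22). Both separated the groups without passing. Over the 21 genes, 2 were higher and 3 lower without overlap, against 7.70% and 9.23% of all clusters.

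Of 20 mineralocorticoid receptor-responsive genes 0 passed, with a median of -0.19. Without overlap 1 was higher and 3 were lower, near the 7.70% and 9.23% of all clusters. Sgk1, the kinase through which aldosterone acts on sodium transport in the kidney, was at 10.86, 11.35 and 11.01 against 11.55, 10.79 and 11.04, and the groups overlapped (-0.05 ± 0.28, adjusted p = 0.955). Adamts1, a matrix protease, was at 9.11, 9.47 and 8.80 against 10.21, 9.79 and 11.02 (-1.21 ± 0.29, adjusted p = 0.168). Of 34 glucocorticoid-responsive genes 29 were below 0, 12 were lower and 1 higher without overlap (9.23% and 7.70% of all clusters), and 0 passed. That list had a median of -0.45, and -0.52 from untreated replicate 1. It holds Mt1, Mt2 and Nfkbia, whose values are given above, and Irs2, an insulin receptor substrate, at -1.13 ± 0.22 (adjusted p = 0.134). Tsc22d3, a classical glucocorticoid target, had overlapping groups at -0.79 ± 0.31 (adjusted p = 0.311), and so had Fkbp5, a chaperone of the receptor, at -0.37 ± 0.31 (adjusted p = 0.627).

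In the clock list, 0 of 19 genes passed and the median was 0.01, but -0.10 from untreated replicate 1 alone. Nr1d1, the repressor Rev-erb alpha, was at 11.64, 12.04 and 12.15 against 11.19, 10.92 and 10.41 (1.10 ± 0.18, adjusted p = 0.0949). Its output partner Dbp was at 10.54, 10.69 and 9.81 against 9.66, 8.76 and 8.96 (1.22 ± 0.25, adjusted p = 0.146). Nfil3, which competes with Dbp for the same sites, was at 6.77, 6.66 and 6.59 against 7.39, 7.31 and 7.43 (-0.71 ± 0.11, adjusted p = 0.0783). The groups did not overlap for any of these 3 genes. Over the list 3 were higher and 2 lower without overlap, against 7.70% and 9.23% of all clusters. Without untreated replicate 1, 5 clock genes passed as higher and 1 as lower, against 0.556% and 0.865% of all clusters, Nr1d1, Dbp and Nfil3 among them, and the list's median was 0.29. The time of day of dissection is not given in the sources used here.

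Genes of the muscle fibre differed by list. Of the 24 general skeletal muscle markers 22 were above 0, beside 13374 of all 30412 tested clusters. Their median was 0.10, but 0.002 from untreated replicate 1 alone. The 21 slow fibre genes had 9 members above and 12 below 0 and a median of -0.06, between -0.28 and 0.03 with 1 array left out. The 32 atrophy and proteolysis genes had 17 above and 15 below 0, with a median of 0.04. At the neuromuscular junction 17 of 20 measured genes were above 0 and 8 were higher without overlap, against 7.70% of all clusters. The list's median was 0.38, but 0.20 from untreated replicate 1 alone. Chrnb1 was at 12.24, 12.20 and 11.85 in treated and 11.20, 10.90 and 11.07 in untreated muscle, and it kept its distance from untreated replicate 1 alone, at 0.90. The delta subunit Chrnd was at 9.68, 9.48 and 9.43 against 8.41, 8.90 and 8.30 (0.99 ± 0.25, adjusted p = 0.196), and the adult epsilon subunit Chrne at 0.69 ± 0.20 (adjusted p = 0.225). Rapsn, which clusters the receptor, was at 7.57, 7.65 and 7.69 against 7.22, 7.24 and 6.70 (0.58 ± 0.13, adjusted p = 0.15). None of the 20 passed with all arrays, and Chrnb1 and Rapsn passed without untreated replicate 1, where 0.556% of all clusters were higher.

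Of 28 ion channel and calcium handling genes 26 were above 0 and 13 were higher without overlap, against 7.70% of all clusters. The median was 0.37, but 0.17 from untreated replicate 1 alone, and 0 passed with all arrays. Clcn1, the chloride channel that sets the resting conductance of muscle, was at 11.27, 11.60 and 11.34 against 11.06, 10.23 and 10.40 (0.84 ± 0.21, adjusted p = 0.184). The sodium pump subunit Atp1b2 was at 11.88, 12.18 and 11.82 against 11.53, 10.74 and 10.93 (0.90 ± 0.22, adjusted p = 0.181). In both, untreated replicate 1 was the highest of its group. Cacng1, a subunit of the voltage sensor, was at 0.50 ± 0.13 and Jph2, which holds the triad together, at 0.69 ± 0.19.

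The dystrophin complex and membrane repair list had 16 of 21 members above 0, and 6 higher and 2 lower without overlap (7.70% and 9.23% of all clusters). Its median was 0.29, but 0.17 from untreated replicate 1 alone, and 0 members were past the threshold. Sgca, alpha-sarcoglycan, was at 12.84, 13.29 and 13.17 against 12.72, 12.25 and 12.55 (0.59 ± 0.14, adjusted p = 0.18). The syntrophin Sntb1 was at 11.39, 11.61 and 11.41 against 10.83, 10.63 and 10.41 (0.84 ± 0.22, adjusted p = 0.196). Dmd, whose mdx mutation is a premature stop, was at 0.28 ± 0.18 (adjusted p = 0.516) and Utrn at -0.03 ± 0.11 (adjusted p = 0.941), both with overlapping groups.

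**Figure D3:**
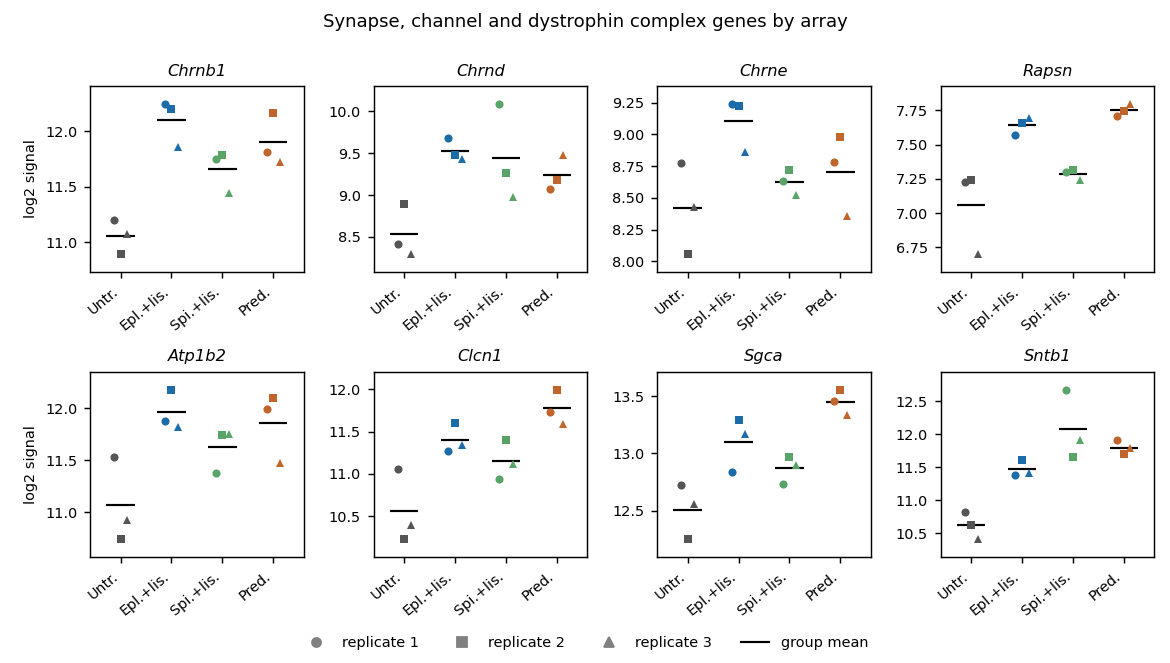
Log2 signal (vertical axes, each panel on its own range) of 4 neuromuscular junction genes (Chrnb1, Chrnd, Chrne, Rapsn), 2 ion transport genes (Atp1b2, Clcn1) and 2 dystrophin complex genes (Sgca, Sntb1) by array in the 4 groups of 3; points are arrays, shapes are replicate numbers and bars are group means. In all 8 panels the eplerenone plus lisinopril arrays lie above the untreated arrays, and none of the 8 genes is past the threshold.

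Regeneration and growth genes were measured as a further group. Of 31 myogenesis and regeneration genes 26 were above 0, 8 were higher and 3 lower without overlap (7.70% and 9.23% of all clusters), and 0 passed, with a median of 0.35 (0.27 from untreated replicate 1). Mef2c, a transcription factor of fibre maturation, was at 14.33, 14.44 and 14.19 against 13.89, 13.45 and 13.70 (0.64 ± 0.12, adjusted p = 0.118). Embryonic myosin heavy chain Myh3, a marker of new fibres, was at 13.94, 13.69 and 14.09 in treated and spread over 12.94, 14.34 and 11.94 in untreated arrays. The growth factor Igf1 was at 0.35 ± 0.09 (adjusted p = 0.215). The ubiquitin ligases of atrophy, Fbxo32 and Trim63, had overlapping groups at -0.57 ± 0.36 and -0.31 ± 0.26.

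Metabolic genes were measured in 3 lists. Of 36 genes of mitochondrial respiration 33 were above 0 and 10 were higher without overlap (7.70% of all clusters), with a median of 0.27, but 0.10 from untreated replicate 1 alone. Cyc1, a subunit of complex III, was at 12.70, 12.92 and 12.51 against 12.06, 11.96 and 11.93 (0.73 ± 0.14, adjusted p = 0.118). The coactivator Ppargc1b was at 8.37, 8.19 and 8.13 against 7.83, 7.65 and 7.35 (0.62 ± 0.13, adjusted p = 0.145), whereas Ppargc1a had overlapping groups at -0.58 ± 0.25. The 33 fatty acid oxidation genes had 10 members below 0 and a median of 0.19, but 0.04 from untreated replicate 1 alone. The 30 glucose and glycogen genes had 6 below 0 and a median of 0.14, but 0.008 from that array alone. Neither list held a gene past the threshold. Adipocyte markers had a median of 0.43 over 24 genes, which was 0.16 without treated replicate 3 and 0.19 without untreated replicate 2. Their mean log2 signal was 9.81 in treated replicate 1, within the untreated range of 9.45 to 9.95. The desaturase Scd1 was at 16.23, 17.10 and 18.10 against 14.78, 14.65 and 14.72, apart from the untreated arrays and spread among the treated ones. The difference was 2.43 ± 0.88 (adjusted p = 0.288), with an SE that draws on the spread within all 4 groups of the 12 arrays.

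Of 46 measured matrix and fibrosis genes 32 were above 0, 12 were higher and 1 (Thbs1) lower without overlap (7.70% and 9.23% of all clusters), and 0 passed, with a median of 0.08. Without untreated replicate 1, 4 passed, all lower against 0.865% of all clusters. These were Thbs1 at -3.20, the metalloproteinase inhibitor Timp1 at -1.84, the metalloproteinase Mmp3 at -1.74 and the collagen cross-linking enzyme Lox at -1.13. All 4 falls were largest in that fit. With another array left out they shrank to as little as -2.34, -0.79, -0.91 and -0.42, and from untreated replicate 1 alone Timp1 and Lox were above 0. Col1a1, the main fibrillar collagen chain, was at 17.14, 16.999 and 17.08 against 16.90, 16.88 and 16.88 (0.18 ± 0.07, adjusted p = 0.313). Col5a1 was at 0.31 ± 0.08 (adjusted p = 0.209) and Col6a2 at 0.37 ± 0.12 (adjusted p = 0.251). The profibrotic factors Ccn2 and Tgfb1 had overlapping groups, at -0.996 ± 0.44 (adjusted p = 0.357) and -0.18 ± 0.18 (adjusted p = 0.696).

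Other cell types were read from their markers. No member passed among 23 T and NK cell, 15 B cell, 12 mast cell, 19 fibroblast, 10 tendon, 21 endothelial, 17 smooth muscle and pericyte, 10 Schwann cell and nerve and 3 erythroid genes. Their medians ran from -0.20 for endothelial markers to 0.19 for tendon markers. The endothelial median was 0.0061 without untreated replicate 3 and -0.44 without untreated replicate 2. The 37 interferon response genes had a median of -0.19 and the 19 antigen presentation genes one of -0.10, with 4 of each lower without overlap, against 9.23% of all clusters, and 0 past the threshold. The interferon median lay between -0.31 and -0.04 with 1 array left out. Trim25, a ubiquitin ligase of antiviral signalling, was at 9.96, 9.75 and 9.92 against 10.79, 10.46 and 10.55 (-0.72 ± 0.13, adjusted p = 0.115).

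**Figure D4:**
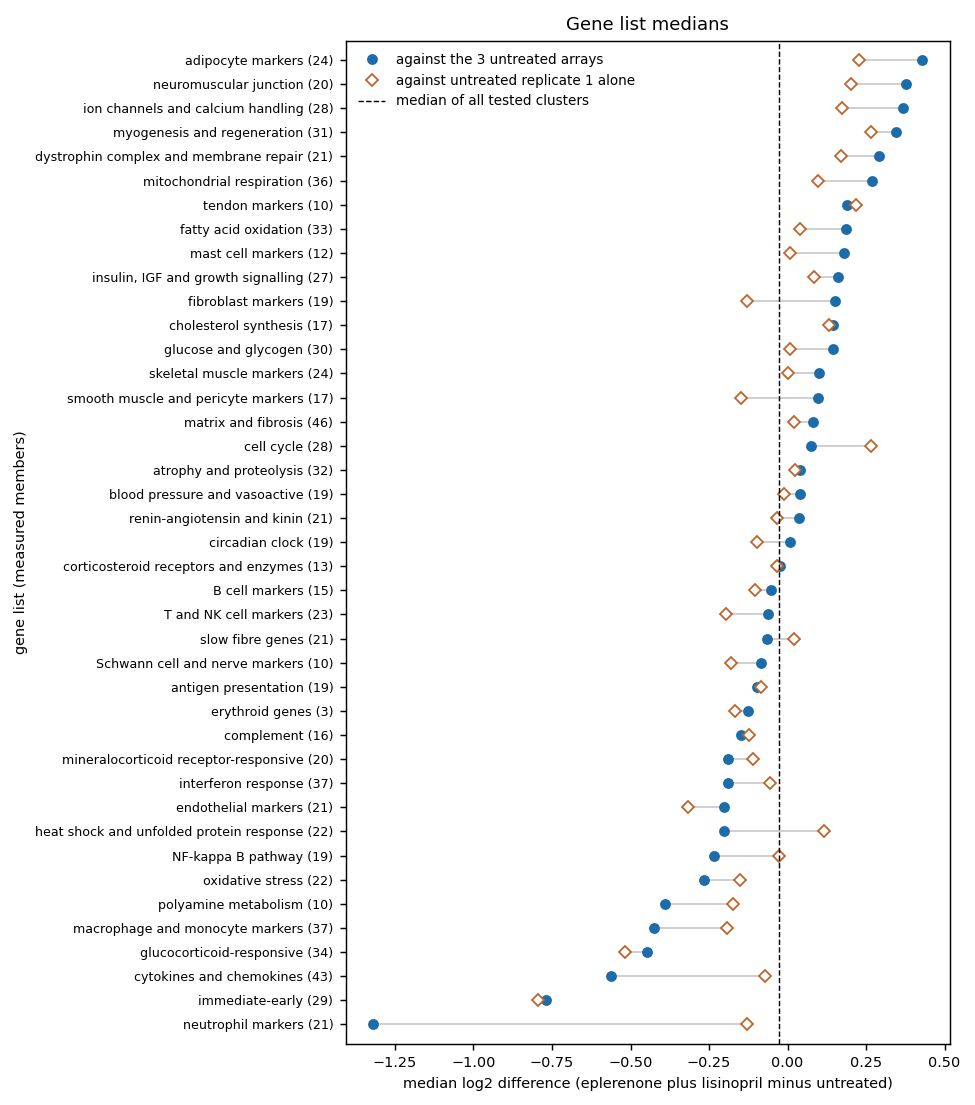
Median log2 difference (horizontal axis, eplerenone plus lisinopril minus untreated) of the measured members of each of 41 gene lists, against the 3 untreated arrays (filled circles) and against untreated replicate 1 alone (open diamonds); the dashed line is the median of all tested clusters, -0.03. Neutrophil markers move from -1.32 to -0.13 and cytokines and chemokines from -0.56 to -0.07, while immediate-early genes stay at -0.77 and -0.79.

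The 2 mineralocorticoid receptor antagonists were set against each other directly, each with the same dose of lisinopril. Eplerenone carries an epoxide, and a methyl ester where spironolactone carries an acetylthio group. The antagonists were dosed differently (200 and 100 mg/kg per day), so drug and dose cannot be told apart. By limma 0 clusters passed (0% of those tested), and 1365 had an unadjusted p under 0.05. The 95% interval of the difference had a median half-width of 0.28 and lay within ± 1 for 97.4% of clusters. For Cd14 the difference, eplerenone minus spironolactone, was -0.03 (95% interval -0.49 to 0.42), for Cd80 -0.06 (-0.44 to 0.31), for Nfe2l2 -0.01 (-0.21 to 0.19) and for Ell2 -0.01 (-0.31 to 0.30). Rel was lower with eplerenone plus lisinopril by this unadjusted interval, at -0.30 (-0.46 to -0.14), and Sgta and Shisa4 were higher, at 0.27 (0.13 to 0.42) and 0.34 (0.08 to 0.59), but none passed after adjustment over all clusters. The same held for Chrnb1 at 0.44 (0.11 to 0.77) and Col1a1 at 0.22 (0.07 to 0.38). Rel, Sgta, Shisa4 and Chrnb1 were picked by their difference from untreated in the same eplerenone plus lisinopril arrays. Their intervals can lie further from 0 through that choice, so no difference between the antagonists is read from them. Against the same untreated arrays, Rel was at -0.69 with eplerenone plus lisinopril and at -0.39 with spironolactone plus lisinopril, and Chrnb1 at 1.04 and 0.60.

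The direct comparison with prednisolone, an anti-inflammatory glucocorticoid that is standard care in this disease, had 185 clusters past the threshold (0.608% of those tested), 114 higher (0.375%) and 71 lower (0.233%) in eplerenone plus lisinopril muscle. Drug, dose and route differ between these groups. The count was 27 without prednisolone replicate 2, 30 without treated replicate 1, 32 without prednisolone replicate 1, 50 without treated replicate 2 and 90 without treated replicate 3. The share of higher clusters was 61.6%, and 76.9% with equal array medians.

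Interferon response genes were the largest group among those lists to stand higher than with prednisolone. Past the threshold were 17 of 37, against 0.375% of all clusters, with 0 lower and a median of 1.02. The count was 13 without treated replicate 3, 9 without prednisolone replicate 3, 5 without treated replicate 2 and 2 without any one of treated replicate 1 and prednisolone replicates 1 and 2, while the median stayed between 0.94 and 1.15. Bst2, which tethers budding virus to the membrane, was at 13.74, 13.62 and 12.60 with eplerenone plus lisinopril and at 11.30, 10.72 and 10.97 with prednisolone, 2.32 ± 0.27 higher (adjusted p = 0.00548). Untreated muscle had 13.43, 13.39 and 13.39, close to the combination. The interferon-induced chemokine Cxcl9 was at 10.75, 10.61 and 9.92 against 7.60, 7.22 and 7.63, 2.94 ± 0.51 higher (adjusted p = 0.0356). The immunoproteasome subunit Psmb8 was 0.57 ± 0.10 higher (adjusted p = 0.0321). Against untreated muscle, the median of the interferon list was -0.19 with the combination and -1.26 with prednisolone.

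Collagen genes also stood higher than with prednisolone. Of the 46 matrix genes 8 were past the threshold, all higher, against 0.375% of all clusters (1 to 6 with any one of the 6 arrays left out). Among them were Col1a1, Col1a2, Col3a1, Postn and Sparc. Against untreated muscle, the median of the matrix list was 0.08 with the combination and -0.32 with prednisolone. Col1a1 was at 17.14, 16.999 and 17.08 against 16.21, 16.20 and 16.28 with prednisolone, 0.84 ± 0.07 higher (adjusted p = 0.00118). Igf1 was 0.62 ± 0.09 higher (adjusted p = 0.0204). The 19 clock genes went both ways. Past the threshold, 4 were higher (Per1, Per3, Nr1d2 and Dbp) and 3 lower (Arntl, Clock and Npas2), against 0.375% and 0.233% of all clusters. Per1, which glucocorticoid also induces directly, was at 9.21, 9.95 and 8.77 against 6.19, 6.29 and 5.95, 3.17 ± 0.55 higher (adjusted p = 0.0349). Dbp was 2.50 ± 0.25 higher (adjusted p = 0.0039). Erdr1 was 3.00 ± 0.22 higher (adjusted p = 0.000637). From untreated muscle the combination differed less in these 3 genes. With 1 array left out, that difference ran from -0.55 to 0.46 for Per1, 1.04 to 1.49 for Dbp and -0.44 to -0.20 for Erdr1.

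Fewer genes of known function stood lower than with prednisolone. The B-cell attractant Cxcl13 was at 8.41, 7.59 and 8.22 against 12.57, 11.10 and 11.66 (difference -3.71 ± 0.60, adjusted p = 0.0253). Lcn2, lipocalin 2, was at 5.33, 5.29 and 5.61 against 9.44, 8.12 and 7.97 (difference -3.10 ± 0.48, adjusted p = 0.0221). The atrophy ligase Fbxo32 was at 10.16, 10.65 and 10.80 against 12.79, 12.54 and 12.55 (difference -2.09 ± 0.36, adjusted p = 0.0321). Ppp1r3c, which directs phosphatase to glycogen, was at -2.57 ± 0.43 (adjusted p = 0.0268), Car14, a membrane carbonic anhydrase, at -2.18 ± 0.24 (adjusted p = 0.00435), Odf3l2 at -2.33 ± 0.32 (adjusted p = 0.0125) and Agt at -0.91 ± 0.17 (adjusted p = 0.0488). From untreated muscle the combination differed less in these genes. With 1 array left out, that difference ran from -1.01 to -0.04 for Cxcl13, -1.90 to -0.86 for Lcn2 and -0.81 to -0.31 for Fbxo32. It ran from -1.29 to -0.70 for Ppp1r3c, 0.04 to 0.37 for Car14, -0.66 to -0.06 for Odf3l2 and 0.05 to 0.32 for Agt. For the genes that fell against untreated, the difference from prednisolone was -0.25 for Cd14, 0.14 for Cd80, 0.01 for Rel, 0.24 for Nfe2l2, -0.03 for Ell2 and 0.22 for Dennd4a, none of them past the threshold.

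**Figure D5:**
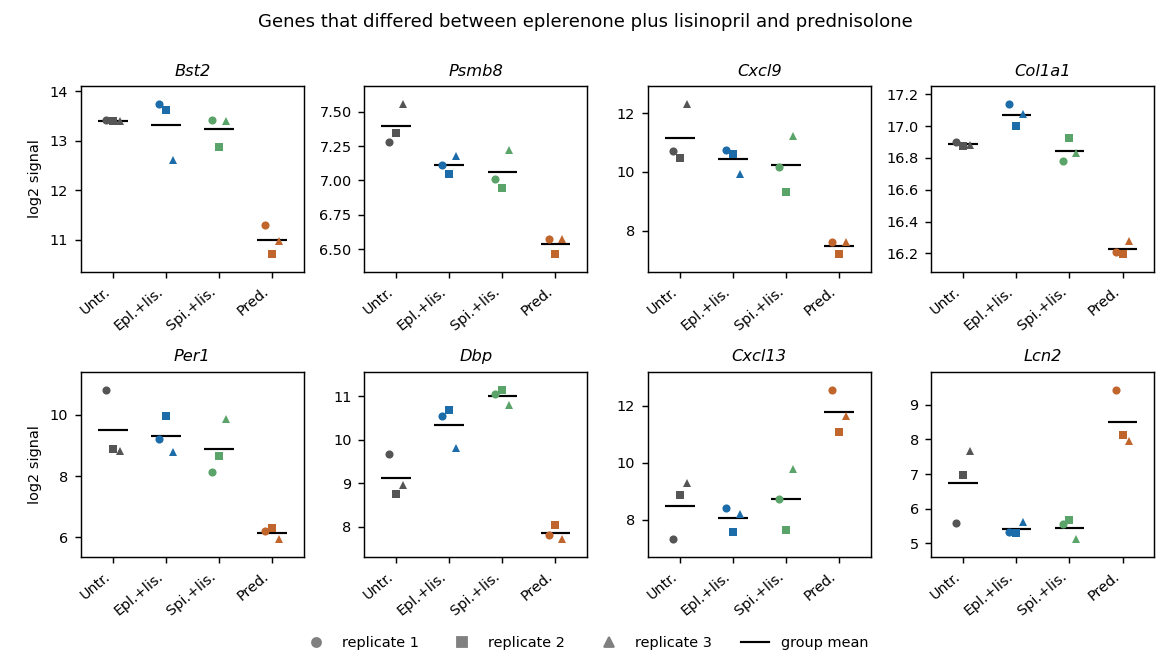
Log2 signal (vertical axes, each panel on its own range) of 8 genes past the threshold between eplerenone plus lisinopril and prednisolone, by array in the 4 groups of 3; points are arrays, shapes are replicate numbers and bars are group means. Bst2, Psmb8, Cxcl9, Col1a1, Per1 and Dbp are higher and Cxcl13 and Lcn2 lower with eplerenone plus lisinopril than with prednisolone.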

How the data were processed

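The authors deposited 1 log2 signal per transcript cluster and array. The submitters' processing notes name RMA, Affymetrix Expression Console and Transcriptome Analysis Console. No version, RMA variant or build is given in the sources used here. On each array 1.27% to 1.34% of clusters exceeded 16, the top of a 16-bit scanner's log2 range, so the values were rescaled at a step not described. Precision is limited by the 3 arrays per group. The p-values set each difference against a moderated spread between mice, pooled within the 4 groups of all 12 arrays.

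A group-means model over all 12 arrays was fitted with limma 3.58.1 in R 4.3.3 (lmFit, eBayes), with Benjamini-Hochberg adjustment over the 30412 clusters that the platform annotation pairs with exactly 1 symbol. The fit was tested on simulated data. A further 2118 clusters had several symbols and 33057 none. In a list a gene stands for its brightest cluster. Each of the 41 lists is described by counts and medians, with no set test. The genes named were those past the threshold (filled up to 5 that rose by the smallest p at a fold of at least 1.5), part of the 4 members of each list with the smallest p, most of 25 chosen genes (23 measured), and the 5 largest in each direction against prednisolone. Of the 23 chosen genes measured, 0 passed against untreated, with differences from -0.996 (Ccn2) to 0.83 (Myh3). Among these, Zbtb16 and Klf15 are not described above. Members of lists counted without 1 array, Plaur, the collagens and the further clock genes past the threshold against prednisolone were named after their values were seen. The comparison, lists and genes were chosen with earlier results of these data known. The comparisons with untreated mice share the untreated arrays. Alternatives covered the arrays fitted, a replicate block, the variance prior, normalization, dim clusters, all clusters, 1 cluster per symbol and each array left out.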

Additional observations from a re-analysis of the deposited data

Results flagged for a closer look

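Among the clusters that the annotation does not pair with exactly 1 symbol, which the comparisons above do not use, 3 were past an adjusted p of 0.05 against untreated when limma's p-values were adjusted over all 65587 clusters. All 3 were lower with eplerenone plus lisinopril, the largest difference being -1.99.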

How the results depend on the processing

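Against untreated, 9 clusters passed (2 higher, 7 lower). This became 0 with the 6 arrays alone (0 higher, 0 lower) and 0 with untreated replicate 1 as the only untreated array. It became 19 without dim clusters (5 higher, 14 lower). The higher count became 1 with a robust prior or quantile normalization and 0 over all clusters, and the lower count became 3 without moderation. With 1 array left out, the count ran from 0 to 432 (higher 0 to 169, lower 0 to 263), and clusters past a fold of 2 from 164 to 410. Groups did not overlap in 5150 clusters, and in 3268 without dim clusters, an alternative chosen after seeing the data, as were the list counts against prednisolone with an array left out. Against prednisolone, the lower count was 28 with the 6 arrays alone. The count was 58 without moderation (39 higher, 19 lower) and 339 without dim clusters (219 higher, 120 lower), with 74 higher over all clusters. With 1 array left out it ran from 27 to 137 (higher 19 to 77, lower 8 to 60). Against spironolactone plus lisinopril it was 0 throughout. Where fewer clusters or arrays entered, the alternative's construction differs; otherwise the cause was not tested.

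Replicate numbers did not pair the samples: same-numbered treated and untreated arrays had correlations of deviations of -0.03, -0.24 and 0.06. A replicate block left 2 clusters against untreated (0 higher, 2 lower), and 0 of the 8 named genes passed under it (limma adjusted p 0.0674 to 0.0832, same direction). It left 82 against prednisolone (53 higher, 29 lower).

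Some differences from untreated that were not past the threshold changed sign. With equal array medians Hsd11b1 was at 0.0072 and Utrn at 0.0051, and with quantile normalization Agtr1a at -0.0074. With 1 array left out, the difference ran for Ace from -0.016 to 0.32, Agtr1a from -0.065 to 0.14, Bst2 from -0.30 to 0.27, Cd68 from -0.59 to 0.032, Hsd11b1 from -0.21 to 0.083, Nr3c1 from -0.063 to 0.26, Per1 from -0.55 to 0.46, Sgk1 from -0.22 to 0.16, Tgfb1 from -0.29 to 0.025 and Utrn from -0.14 to 0.062. From untreated replicate 1 alone the values were -0.10 for Ace, -0.085 for Agt, -0.18 for Agtr1a, -0.035 for Col3a1, 0.74 for Cxcl13, -0.14 for Dmd, 0.24 for Fkbp5, 0.28 for Hspa1a, 0.0075 for Lox, -0.34 for Nr3c1, -0.23 for Nr3c2, -0.0097 for Postn, 0.041 for Ppargc1a, -0.022 for Sparc and 0.12 for Timp1.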
